A study of Mus musculus with 14 samples.

Results

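The hedgehog pathway genes Dhh, Ptch1, Hhip, Gas1, Smo, Sufu, Gli1, Gli2 and Gli3 were followed in the proximal epididymis of mice after ligation of the efferent ducts. These 9 genes were chosen by name, with earlier results of these data known. They are ligand, receptors, transducer, inhibitor and transcription factors of a single pathway, and 9 of the 21929 named genes on the arrays. Each was read by 1 probe set.

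Whole-tissue RNA from 7 mice aged 8 weeks was hybridised to 14 Clariom S arrays. In cKO mice Arl13b had been knocked out conditionally in the Krt5-positive basal cells of the epithelium, and Ctl mice were the controls. On one side of every mouse the efferent ducts were ligated (EDL), which stops sperm and testicular fluid from reaching the epididymis, and the opposite side was sham-operated. Tissue came from 48 h after surgery. There were 3 cKO EDL, 3 cKO sham, 4 Ctl EDL and 4 Ctl sham arrays, so the 2 sides of a mouse share their animal. The Cre line, the alleles and the exact genotype of Ctl mice are not given in the sources used here. By design the knockout leaves Arl13b in all other cell types of the tissue, which was not checked here.

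Hedgehog ligands are secreted proteins that bind Ptch1, a receptor that otherwise silences the transmembrane protein Smo. Released Smo moves into the primary cilium, and the Gli transcription factors, held back by Sufu and cut into repressors in its absence, become activators. Arl13b is a small GTPase of the ciliary membrane that this signalling needs, and Gli1, Ptch1 and Hhip are the genes most often read as its output. In many epithelial organs the ligand comes from the epithelium and the response lies in the mesenchyme around it.

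Values are log2 intensities. As a level of no clear signal, the 95th percentile of 1459 olfactory and vomeronasal receptor genes was used, which was 5.31. Differences are log2 differences of group means from 1 limma model of the 4 groups, with moderated standard errors (SE), 95% intervals and p-values adjusted by Benjamini-Hochberg over all genes. A gene passed the test at an adjusted p under 0.05. Array medians lay between 6.99 and 7.09. The targeted gene Arl13b averaged 7.29 ± 0.25 in cKO EDL, 7.20 ± 0.04 in cKO sham, 7.43 ± 0.12 in Ctl EDL and 7.10 ± 0.26 in Ctl sham arrays (SD, n = 3, 3, 4 and 4), and cKO and Ctl arrays overlapped in both tissues. The sources used here do not say where its probe set lies relative to the deleted part. The tissue label was checked on 14 genes of initial segment principal cells, of which 13 were above the receptor level in at least 1 group. Their mean level was 11.83 in cKO sham and 11.76 in Ctl sham arrays. The cKO sham array of replicate 2 stood apart in its cell type markers, with a mean level of 14 fibroblast genes of 7.40 against 8.35 and 8.31 in the other cKO sham arrays.

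Of the 9 genes, 7 were above the receptor level on all 14 arrays. Gli1 was above it on 5 arrays and Gli2 on none, with 84.1% of the receptor genes below the mean of Gli2, so neither is given a fold change. The plot of all 9 genes by array shows how little most of them moved.

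**Figure D1:**
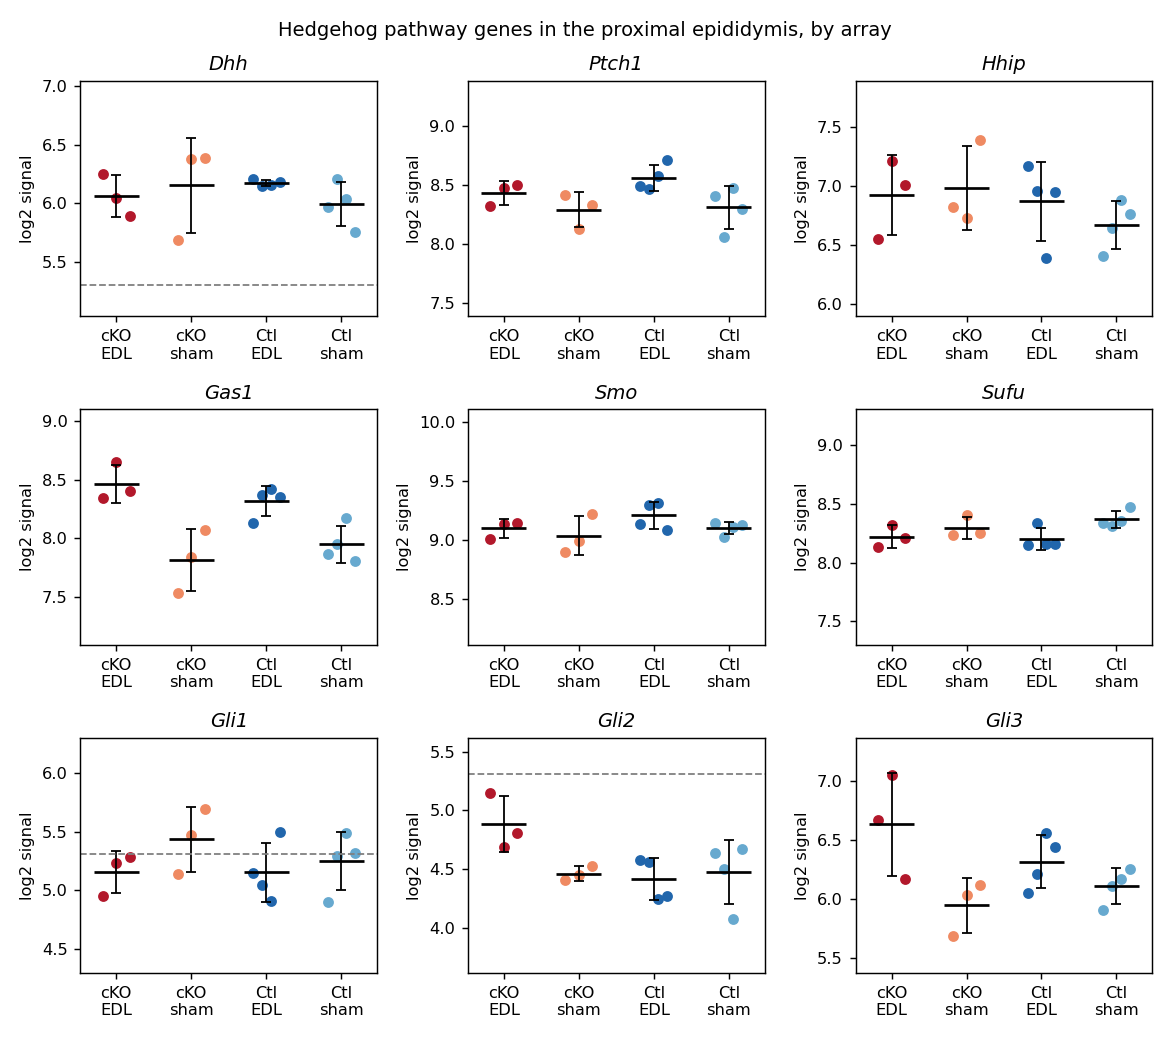
Log2 signal of the 9 hedgehog pathway genes on each of the 14 arrays (points), with the group mean (bar) and SD (whiskers), for cKO EDL and cKO sham (n = 3 each) and Ctl EDL and Ctl sham (n = 4 each). Every panel spans the same log2 range. The dashed line is the receptor level of 5.31. Gas1 and Gli3 lie higher in the cKO EDL arrays than in all cKO sham arrays, and Gli2 lies under the line throughout.

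Promoter sequences are shown for 3 genes: Gas1 and Gli3, the members that passed the test after EDL, and Ptch1, a standard target of the pathway that did not. They are the 250 bases before the annotated start in RefSeq's mouse table (GRCm38.p6), 5′ to 3′ on the gene's own strand, with every CG pair in capitals. Gas1 lies at chr13:60177536-60177785 on the minus strand, Gli3 at chr13:15463473-15463722 on the plus strand and Ptch1 at chr13:63565736-63565985 on the minus strand.
Gas1: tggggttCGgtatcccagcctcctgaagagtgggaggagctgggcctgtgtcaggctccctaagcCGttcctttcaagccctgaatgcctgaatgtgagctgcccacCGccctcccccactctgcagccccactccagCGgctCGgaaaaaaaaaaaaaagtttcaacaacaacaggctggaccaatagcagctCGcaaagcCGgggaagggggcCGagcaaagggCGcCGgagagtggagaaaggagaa
Gli3: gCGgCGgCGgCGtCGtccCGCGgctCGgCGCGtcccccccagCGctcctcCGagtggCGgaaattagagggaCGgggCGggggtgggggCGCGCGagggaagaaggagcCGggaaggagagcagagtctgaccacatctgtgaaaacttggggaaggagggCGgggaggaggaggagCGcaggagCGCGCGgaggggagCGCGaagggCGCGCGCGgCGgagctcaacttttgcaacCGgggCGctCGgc
Ptch1: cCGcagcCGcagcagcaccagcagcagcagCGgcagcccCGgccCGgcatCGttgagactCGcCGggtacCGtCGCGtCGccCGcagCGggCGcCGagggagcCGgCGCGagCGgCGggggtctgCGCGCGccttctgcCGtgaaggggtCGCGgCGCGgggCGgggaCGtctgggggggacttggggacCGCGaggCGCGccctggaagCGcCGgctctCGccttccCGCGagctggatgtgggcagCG
The window held 10 CG pairs for Gas1, 34 for Gli3 and 41 for Ptch1, against a median of 6 over the 32851 promoters of the table. The Gli binding motif GACCACCCA was searched on both strands, with 1 base left free as GACCNCCCA. Neither was found in the windows of the 8 members in the table (all but Gli1), while 0.225% and 0.868% of all promoters held them. The absence concerns these letters in this window only.

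Gas1 and Gli3 were higher after EDL in cKO tissue (2 of 9, where 9.79% of all genes passed), and no other member passed the test in any comparison. Gas1, a cell surface protein that binds hedgehog ligands together with Ptch1 and helps signalling, rose 1.57-fold. Gli3, which in its cut form is the main repressor of the pathway, rose 1.61-fold. In Ctl tissue 0 of 9 passed, where 7.88% of all genes did. The outputs Gli1, Ptch1 and Hhip did not pass in either genotype, and none of the 9 passed between genotypes.

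Gas1 (probe set TC1300002131.mm.2) read 8.34, 8.65 and 8.40 in the cKO EDL arrays, against 7.54, 7.84 and 8.07 in the cKO sham arrays. All 3 EDL values lay above all 3 sham values. The difference was 0.65 ± 0.14 (SE, 3 arrays in each group, 95% interval 0.35 to 0.94) with a limma adjusted p of 0.00814. In Ctl mice Gas1 read 8.13, 8.37, 8.42 and 8.35 in EDL arrays, against 7.87, 7.95, 8.17 and 7.81 in sham arrays. The groups overlapped by 1 array on either side, and the difference of 0.37 ± 0.12 (95% interval 0.11 to 0.62, n = 4 and 4) did not pass (limma adjusted p = 0.077). It passed without cKO sham replicate 2 (0.37, adjusted p = 0.0457), without Ctl sham replicate 4 (0.44, adjusted p = 0.049) and with 3 other settings. Averaged over genotypes, Gas1 rose by 0.51 ± 0.09 (limma adjusted p = 0.00119), and this held whichever array was left out (0.44 to 0.57, adjusted p from 0.000603 to 0.0039). The difference between the 2 responses was 0.28 ± 0.18 (95% interval -0.11 to 0.67, adjusted p = 0.985), so a difference between genotypes in the response of Gas1 was not detected.

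Gli3 (probe set TC1300000105.mm.2) read 6.67, 7.05 and 6.17 in the cKO EDL arrays, against 5.68, 6.03 and 6.12 in the cKO sham arrays. The groups did not overlap, but the lowest EDL array and the highest sham array were close, and the EDL arrays spread widely (SD 0.44). The difference was 0.69 ± 0.19 (SE, 3 arrays in each group, 95% interval 0.27 to 1.10) with a limma adjusted p of 0.0377. The call rested on single arrays: it was lost without cKO EDL replicate 2 (0.67, adjusted p = 0.109) or 3 (0.48, adjusted p = 0.132) and without cKO sham replicate 2 (0.56, adjusted p = 0.163) or 3 (0.73, adjusted p = 0.0614). In Ctl mice Gli3 read 6.05, 6.21, 6.56 and 6.44 in EDL arrays, against 5.90, 6.11, 6.17 and 6.25 in sham arrays. These groups overlapped, and the difference was 0.21 ± 0.17 (95% interval -0.15 to 0.57, adjusted p = 0.546). Averaged over genotypes the rise was 0.45 ± 0.13 (adjusted p = 0.0246), which did not pass without cKO EDL replicate 2 (0.44, adjusted p = 0.0534) or 3 (0.35, adjusted p = 0.0579), cKO sham replicate 2 (0.38, adjusted p = 0.0714) or Ctl sham replicate 2 (0.42, adjusted p = 0.0502). The difference between the responses was 0.48 ± 0.26 (95% interval -0.07 to 1.03, adjusted p = 0.985).

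Both calls in cKO tissue were rises, and 5.04% of all genes rose there. Of the same 9, Gas1, Gli3 and Gli2 had EDL arrays all above the sham arrays, against 13.4% of all genes. In Ctl tissue 3 of 9 (Ptch1, Sufu and Gas1) had an unadjusted p under 0.05, against 20.3%. Averaged over genotypes 2 of 9 passed, against 18.2% of all genes in either direction and 9.58% higher. Over all genes called, 51.5% were rises in cKO and 52.7% in the average, but 34.9% and 35.9% with each array centred on its median. The median difference of the 9 members was 0.06 in cKO and 0.18 in Ctl, against 0.01 over all genes in both.

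**Figure D2:**
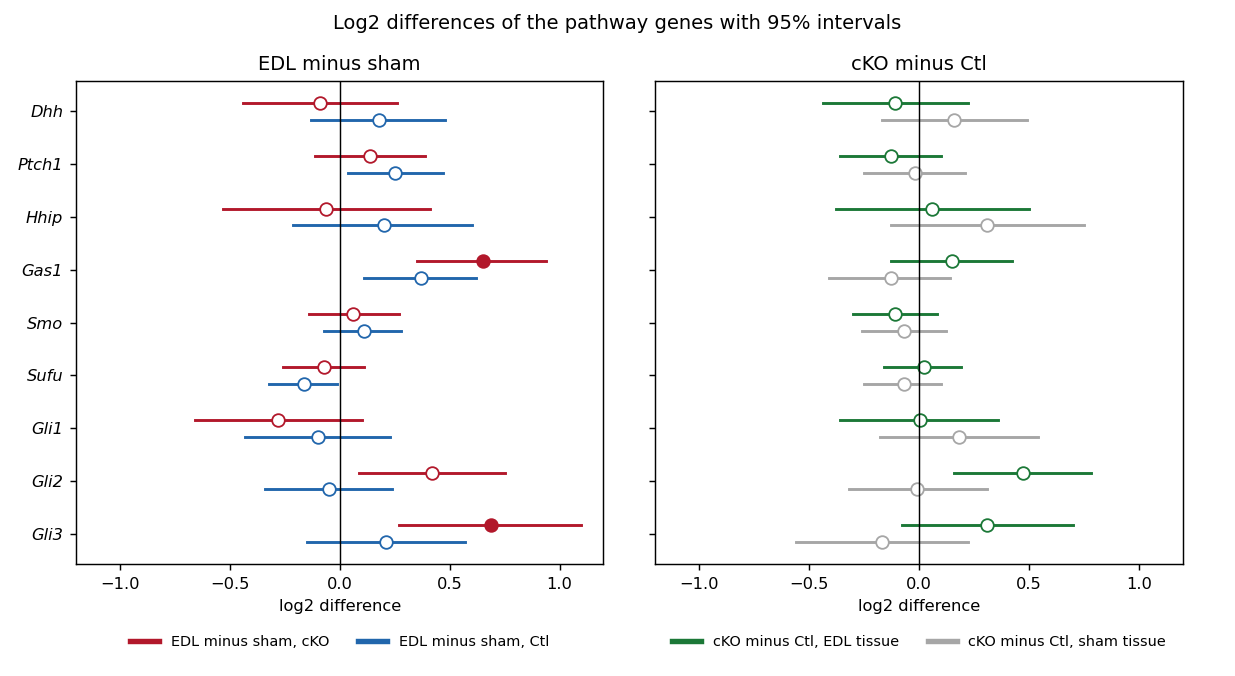
Log2 differences of the 9 genes (points, filled where the adjusted p was under 0.05) with 95% intervals. The left panel gives EDL minus sham in cKO and Ctl mice, the right panel cKO minus Ctl in EDL and sham tissue. The filled points are those of Gas1 (0.65) and Gli3 (0.69) in cKO mice, and all intervals between genotypes but that of Gli2 in EDL tissue (0.16 to 0.78) span 0.

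Markers of stromal and immune cells moved with these rises, and in whole tissue more cells of a type cannot be told apart from more RNA per cell. Of 14 fibroblast genes, 7 rose and 0 fell after EDL in cKO tissue (median 0.81), 0 passed in Ctl (median 0.41), and 10 rose in the average of both (median 0.61). Their summed level ranged from 121.7 to 127.8 in cKO EDL, 103.7 to 116.9 in cKO sham, 118.8 to 125.2 in Ctl EDL and 110.2 to 119.3 in Ctl sham arrays. The defining markers Col1a1, Col1a2 and Col3a1 were above the receptor level in every group. Of 11 smooth muscle genes 5 rose and 1 fell in cKO (median 0.83), with 0 and 1 in Ctl (0.29). Their summed level was 94.4 to 101.4 in cKO EDL and 87.9 to 95.8 in cKO sham arrays, against 88.1 to 96.2 in Ctl EDL and 89.5 to 99.5 in Ctl sham arrays. Of 12 endothelial genes 6 rose and 1 fell in cKO (0.48), with 0 and 1 in Ctl (0.26). Of 12 macrophage genes 12 rose in cKO (1.26) and 10 in Ctl (0.97), their summed level being 105.1 to 106.8 in cKO EDL and 85.3 to 94.5 in cKO sham arrays, and 101.6 to 108.3 in Ctl EDL and 88.4 to 95.9 in Ctl sham arrays. The larger counts of these stromal and immune marker genes in cKO than in Ctl were not kept without the cKO sham array of replicate 2. Without it 0 fibroblast genes rose in cKO and 4 in Ctl, 0 smooth muscle genes rose in either genotype, 2 endothelial genes rose in each, and 11 macrophage genes rose in cKO and 12 in Ctl. The medians in cKO and Ctl were then 0.66 and 0.29 (smooth muscle), 0.37 and 0.26 (endothelial) and 1.11 and 0.97 (macrophage). Leaving out an array also lowers the number of calls. Of all genes 1063 then passed in cKO, and 1305 without cKO EDL replicate 2, against 2146 with every array. The part of these markers in the rises of Gas1 and Gli3 was not tested.

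**Figure D3:**
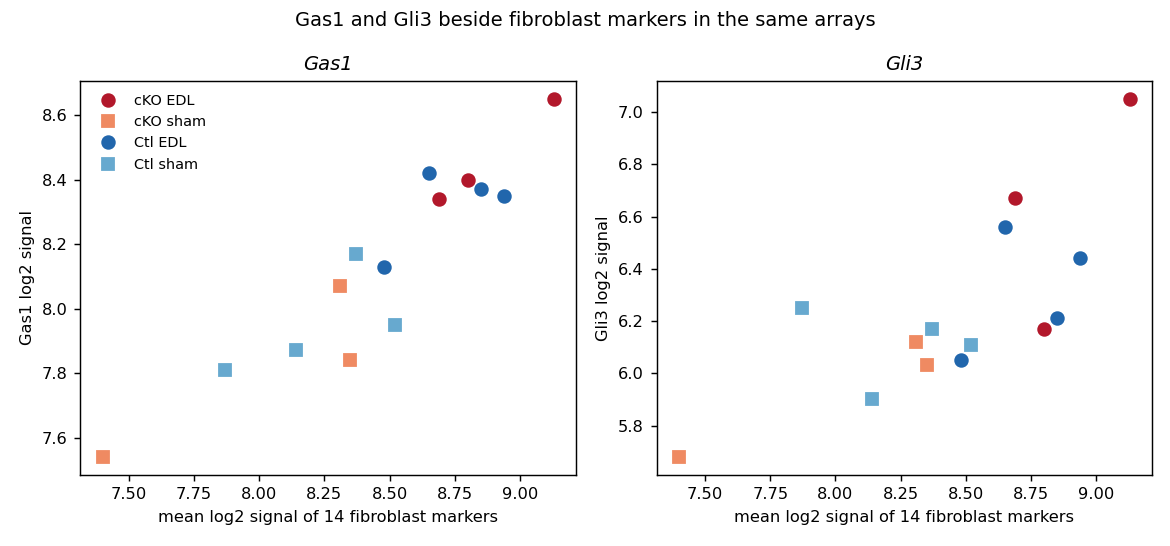
Log2 signal of Gas1 (left) and Gli3 (right) against the mean log2 signal of 14 fibroblast genes in the same array, with EDL arrays as circles and sham arrays as squares. The cKO sham array of replicate 2 is lowest on both axes in both panels (fibroblast mean 7.40), and the cKO EDL array of replicate 3 is highest (9.13).

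Without cKO sham replicate 2 the fibroblast median was 0.60 in cKO and 0.41 in Ctl. Gas1 then differed by 0.51 (adjusted p = 0.0459) and Gli3 by 0.56 (adjusted p = 0.163). Without both arrays of mouse cKO 2, Gas1 differed by 0.58 (adjusted p = 0.0553) and Gli3 by 0.53 (adjusted p = 0.297), neither past the threshold.

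Among the other marker lists were 12 genes of basal cells, in which Arl13b was targeted. They were 5 higher and 0 lower in cKO (median 0.34) and 2 higher and 1 lower in Ctl (0.16). Without cKO sham replicate 2 these counts were 4 and 0 in cKO (median 0.32) and 2 and 1 in Ctl. Krt5, a check of the labels, rose by 0.89 ± 0.11 in cKO and 0.44 ± 0.09 in Ctl (limma adjusted p = 0.000103 and 0.00956). The responses of Krt5 differed by 0.46 ± 0.14 (95% interval 0.15 to 0.76, limma unadjusted p = 0.00688, adjusted p = 0.985). In this interaction 4.1% of all genes had an unadjusted p under 0.05. Initial segment principal cell genes fell in both genotypes (9 of 14 in each, medians -1.74 in cKO and -1.98 in Ctl), as did sperm and spermatid transcripts (7 of 12 with a median of -1.59 in cKO, 11 of 12 with -2.18 in Ctl). Clear cell genes (8) had 0 calls in cKO and 3 rises in Ctl, with medians of 0.23 and 0.20. Mesothelial genes (8) had 0 and 1 rise with medians of 0.16 and 0.02. Schwann cells are a known source of Dhh in peripheral nerves. Of 9 Schwann cell genes 1 rose in cKO and 0 in Ctl (medians 0.05 and 0.08), and the defining marker Sox10 was at or under the receptor level in all 4 groups.

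Dhh, the ligand made by Sertoli cells in the testis, read 6.25, 6.05 and 5.89 in cKO EDL arrays, against 5.69, 6.38 and 6.39 in cKO sham arrays. In Ctl mice it read 6.21, 6.15, 6.16 and 6.18 in EDL arrays, against 5.97, 6.21, 6.04 and 5.76 in sham arrays. The Ctl EDL arrays agreed closely with one another while the cKO sham arrays held both the lowest and the highest values. The differences were -0.09 ± 0.16 in cKO (95% interval -0.44 to 0.26, adjusted p = 0.824) and 0.18 ± 0.14 in Ctl (-0.13 to 0.48, adjusted p = 0.544). The other ligands, Shh and Ihh, which are not among the 9, were also above the receptor level on all 14 arrays. Shh differed by 0.06 ± 0.13 in cKO (adjusted p = 0.845) and 0.29 ± 0.11 in Ctl (adjusted p = 0.146), and Ihh by -0.25 ± 0.13 and 0.06 ± 0.11 (adjusted p = 0.285 and 0.825).

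Ptch1, the receptor and a direct target, read 8.32, 8.48 and 8.50 in cKO EDL arrays, against 8.42, 8.13 and 8.33 in cKO sham arrays. In Ctl mice it read 8.49, 8.47, 8.58 and 8.71 in EDL arrays, against 8.41, 8.06, 8.48 and 8.30 in sham arrays. In Ctl 1 sham array lay within the EDL range. Ptch1 differed by 0.14 ± 0.12 in cKO (95% interval -0.11 to 0.39, adjusted p = 0.543) and by 0.25 ± 0.10 in Ctl (0.04 to 0.47, unadjusted p = 0.0246, adjusted p = 0.162). The average over genotypes was 0.20 ± 0.08 (adjusted p = 0.0969). In the authors' deposited table the unadjusted p of Ptch1 between Ctl EDL and Ctl sham was 0.0315, with a sham over EDL ratio of 0.84.

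Hhip, a membrane protein that binds and removes the ligands, read 6.55, 7.21 and 7.01 in cKO EDL arrays, against 6.82, 6.73 and 7.39 in cKO sham arrays. In Ctl mice it read 7.17, 6.96, 6.39 and 6.95 in EDL arrays, against 6.40, 6.64, 6.88 and 6.76 in sham arrays. All 4 groups overlapped. Its arrays spread more than those of Ptch1, over 1.01 against 0.66 on the log2 scale, and its intervals were wide, from -0.53 to 0.41 around -0.06 in cKO and from -0.21 to 0.60 around 0.20 in Ctl (adjusted p = 0.926 and 0.633).

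Smo, the transducer, was among the steadiest members, with values between 8.90 and 9.32 on all 14 arrays. Its differences were 0.06 ± 0.10 in cKO (95% interval -0.14 to 0.27) and 0.11 ± 0.08 in Ctl (-0.07 to 0.28), with adjusted p of 0.775 and 0.535. Sufu, the inhibitor that binds Gli proteins, varied least, between 8.13 and 8.47. It read 8.13, 8.32 and 8.21 in cKO EDL arrays, against 8.23, 8.40 and 8.25 in cKO sham arrays. It read 8.15, 8.34, 8.16 and 8.16 in Ctl EDL arrays, against 8.34, 8.31, 8.35 and 8.47 in Ctl sham arrays. Of the Ctl EDL arrays, replicate 3 alone reached the sham values. Sufu differed by -0.07 ± 0.09 in cKO (-0.26 to 0.11, adjusted p = 0.691) and by -0.16 ± 0.07 in Ctl (-0.32 to -0.01, adjusted p = 0.227).

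Gli1, the activator whose transcription is the usual readout of the pathway, read 4.95, 5.23 and 5.28 in cKO EDL arrays, against 5.14, 5.47 and 5.69 in cKO sham arrays. In Ctl mice it read 5.15, 5.05, 4.91 and 5.50 in EDL arrays, against 4.90, 5.29, 5.49 and 5.32 in sham arrays. These values straddled the receptor level, so a change in Gli1 could be measured only in part. The differences were -0.28 ± 0.18 in cKO (95% interval -0.66 to 0.10, adjusted p = 0.402) and -0.10 ± 0.15 in Ctl (-0.43 to 0.23, adjusted p = 0.795).

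Gli2, the main activator in most tissues, read 5.15, 4.69 and 4.81 in cKO EDL arrays, against 4.41, 4.45 and 4.53 in cKO sham arrays. It read 4.58, 4.56, 4.25 and 4.27 in Ctl EDL arrays, against 4.64, 4.50, 4.08 and 4.67 in Ctl sham arrays. The cKO EDL arrays lay above those of every other group, all of them under the receptor level. Gli2 differed by 0.42 ± 0.16 after EDL in cKO (95% interval 0.09 to 0.75, adjusted p = 0.115) and by -0.05 ± 0.13 in Ctl (adjusted p = 0.885). The responses differed by 0.47 ± 0.21 (unadjusted p = 0.0373, adjusted p = 0.985).

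The knockout itself was set against its control in each tissue. By limma 0 of 9 members passed in sham tissue, in EDL tissue, in their average and in the interaction, against 0% of all genes in each. In sham tissue 0 of 9 had an unadjusted p under 0.05, against 3.65% of all genes, and the widest difference was that of Hhip (0.31 ± 0.21, 95% interval -0.13 to 0.75, adjusted p = 0.999). In EDL tissue 1 of 9 did, Gli2 (0.47 ± 0.15, unadjusted p = 0.00625, adjusted p = 0.763), against 6.08% of all genes. Gli2 was also the 1 member whose cKO EDL arrays lay above all Ctl EDL arrays, against 3.11% of all genes. In the authors' deposited table the unadjusted p of Gli2 between cKO EDL and Ctl EDL was 0.0149. In the interaction 1 of 9, Gli2, had an unadjusted limma p under 0.05, against 4.1% of all genes. In the average of both surgeries Gli2 again did so (0.23 ± 0.10, limma adjusted p = 0.936), against 5.32% of all genes. This average counts the 2 sides of a mouse as separate arrays. Under the alternatives other than leaving out 1 array, mouse as a random block among them, its limma adjusted p was 0.886 to 0.999. In sham tissue the outputs differed by 0.18 ± 0.17 (Gli1) and -0.02 ± 0.11 (Ptch1), with 95% intervals of -0.18 to 0.54 and -0.25 to 0.21. In EDL tissue their values were 0.002 ± 0.17 and -0.13 ± 0.11, with intervals of -0.36 to 0.36 and -0.36 to 0.10. These intervals are what 3 and 4 arrays allow, and basal cells are a part of the tissue.

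The order of the group means differed from gene to gene. For Gas1 and Gli3 it was cKO EDL, Ctl EDL, Ctl sham and cKO sham from high to low, and neighbours overlapped at each step. Gli2 was highest in cKO EDL with no overlap with the next group, and its other neighbours overlapped. For Ptch1, Smo, Sufu, Hhip, Dhh and Gli1 every pair of neighbours overlapped, and their group means spread over 0.16 (Sufu) to 0.31 (Hhip).

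The wider pathway was followed in 5 lists that hold 74 genes between them, the 9 included. The lists were chosen with earlier results of these data known, so their shares of calls describe them and test nothing. Most of their genes were above the receptor level in at least 1 group (7 of 8, 9 of 9, 13 of 13, 18 of 20 and 25 of 28). Of all 21929 genes, 16338 were. In cKO tissue 10 rose and 6 fell (21.6%, against 9.79% of all genes), in Ctl 1 rose and 6 fell (9.46%, against 7.88%), and in the average 12 rose and 10 fell (29.7%, against 18.2%). Between genotypes and in the interaction 0 of 74 passed by limma, as for all genes. The median difference of the 74 was 0.04 in cKO and 0.06 in Ctl. The counts within a genotype changed when the cKO sham array of replicate 2 was left out. Without it 2 rose (Inpp5e and Gas1) and 3 fell in cKO. In Ctl 5 rose (Arrb1, Osr1, Sfrp1, Stk36 and Gas1) and 6 fell, so the larger number of rises in cKO was not kept. Of all genes 1063 then passed in cKO and 1772 in Ctl, against 2146 and 1729 with every array. In the average 10 then rose and 7 fell.

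**Figure D4:**
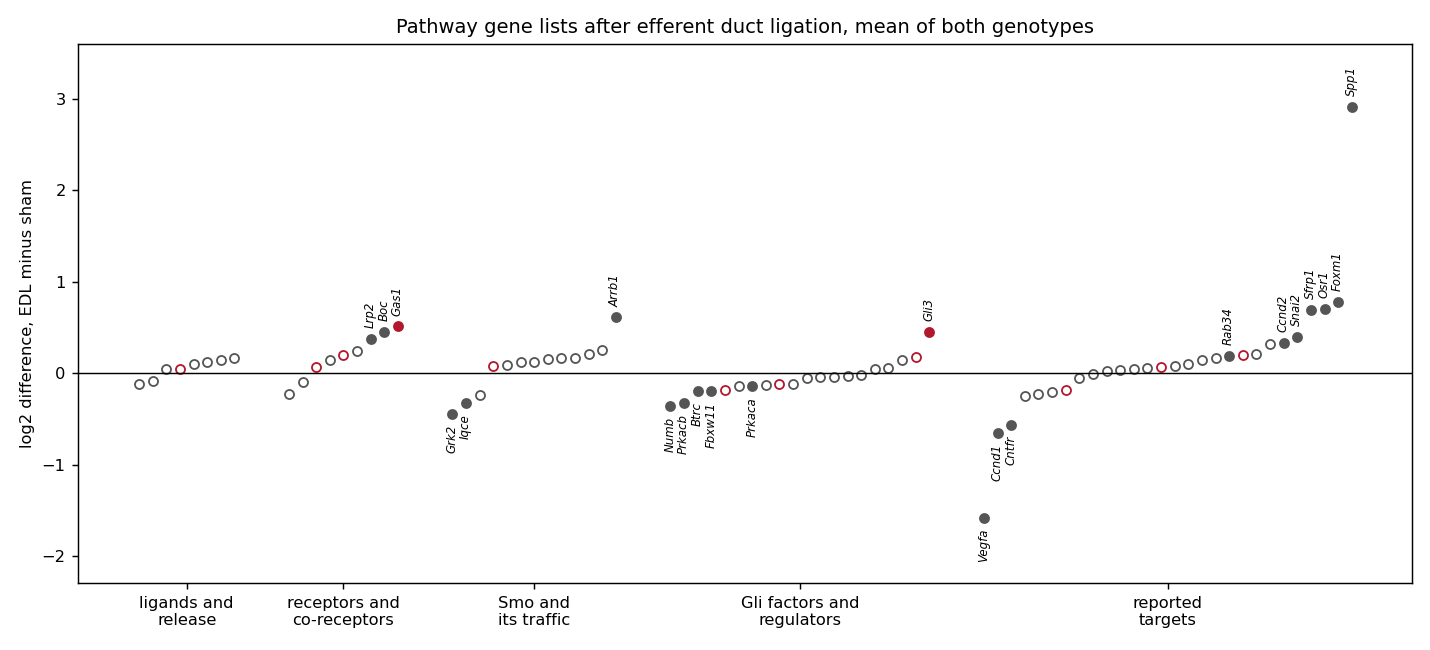
Log2 difference, EDL minus sham, averaged over both genotypes, for every gene of 5 pathway lists in ascending order within a list. Points are filled and named where the adjusted p was under 0.05, and the 9 members are red where they occur. Ligands hold no filled point, the receptor list has 3 above 0 and the Gli list 5 below 0 and Gli3 above.

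No gene of ligand production and release passed in either genotype (0 of 8, medians 0.004 in cKO and 0.12 in Ctl). Of 9 receptors and co-receptors 3 rose in cKO and 0 passed in Ctl. Besides Gas1 these were Boc, a co-receptor of the immunoglobulin superfamily (0.59 ± 0.15, adjusted p = 0.0237), and Lrp2 (megalin), an endocytic receptor that binds Shh (0.54 ± 0.14, adjusted p = 0.0233). Boc lost its call in cKO in 3 and Lrp2 in 5 of 14 omissions of 1 array. Without cKO sham replicate 2 Gas1 alone of this list passed in cKO, Boc reading 0.42 (adjusted p = 0.111) and Lrp2 0.55 (0.0698). With only the arrays compared Boc did not pass in cKO (0.59, adjusted p = 0.126). In Ctl Boc differed by 0.30 ± 0.13 and Lrp2 by 0.19 ± 0.12 (limma adjusted p = 0.212 and 0.431). The responses differed by 0.29 ± 0.20 (Boc) and 0.36 ± 0.18 (Lrp2), each with an adjusted p of 0.985. Averaged over genotypes Boc rose by 0.45 and Lrp2 by 0.37, and both held whichever array was left out (highest adjusted p 0.0184 and 0.0369). Without both arrays of mouse cKO 2 Lrp2 did not pass in the average (0.34, adjusted p = 0.0608).

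Among 13 genes of Smo and its ciliary traffic, 2 rose and 1 fell in cKO and 0 rose and 2 fell in Ctl. Grk2, a kinase of activated receptors that phosphorylates Smo, fell in both genotypes. It read 9.15, 9.17 and 9.26 in cKO EDL arrays, against 9.65, 9.56 and 9.58 in cKO sham arrays, and 9.11, 9.19, 9.32 and 9.14 in Ctl EDL arrays, against 9.68, 9.65, 9.76 and 9.68 in Ctl sham arrays. Neither genotype's groups overlapped, and the differences were -0.40 ± 0.08 in cKO (adjusted p = 0.00404) and -0.50 ± 0.07 in Ctl (adjusted p = 0.000194). Without both arrays of mouse cKO 2 Grk2 did not pass in cKO (-0.35, adjusted p = 0.0765). Arrb1, a beta-arrestin that binds phosphorylated Smo, rose by 0.71 ± 0.17 in cKO (adjusted p = 0.019), and Inpp5e, a phosphoinositide phosphatase of the cilium that Arl13b brings there, by 0.28 ± 0.08 (adjusted p = 0.0453). Arrb1 lost its call in cKO without cKO EDL replicate 2 or 3 or cKO sham replicate 2 (0.68, 0.68 and 0.46, adjusted p = 0.0681, 0.052 and 0.057). In Ctl Arrb1 differed by 0.50 ± 0.15 (adjusted p = 0.0556), and the responses differed by 0.20 ± 0.23 (adjusted p = 0.985). Averaged over genotypes Arrb1 rose by 0.61 ± 0.11 (limma adjusted p = 0.00186), which held whichever array was left out (highest adjusted p 0.00628). Inpp5e lost its call in cKO in 12 of 14 omissions of 1 array (0.22 to 0.35, adjusted p up to 0.165). Iqce, which holds the Evc complex at the base of the cilium, fell by 0.46 in Ctl (adjusted p = 0.036), with the call lost in 7 of 14 omissions (adjusted p up to 0.113).

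Of 20 genes that form, hold or process Gli proteins, 1 rose (Gli3) and 2 fell in cKO, and 1 rose and 1 fell in Ctl. Numb, which directs Gli1 to degradation with the ubiquitin ligase Itch, fell in both genotypes, by 0.41 ± 0.09 in cKO (adjusted p = 0.00794) and by 0.31 ± 0.07 in Ctl (adjusted p = 0.0197). In Ctl Numb lost its call without Ctl EDL replicate 3 (-0.28, adjusted p = 0.0646) or Ctl sham replicate 4 or 5 (-0.27 and -0.28, adjusted p = 0.0654 and 0.0667). Its call in cKO was lost without both arrays of mouse cKO 2 (-0.41, adjusted p = 0.0739). Prkacb, a catalytic subunit of protein kinase A, which marks Gli2 and Gli3 for cutting, fell by 0.43 ± 0.10 in cKO (adjusted p = 0.0108; -0.37 and 0.0622 without cKO sham replicate 2). Stk36, the mammalian counterpart of the fly kinase fused, rose by 0.35 ± 0.10 in Ctl (adjusted p = 0.0388), with the call lost in 8 of 14 omissions (adjusted p up to 0.114). In the average of both genotypes Numb, Prkacb, Fbxw11, Btrc and Prkaca fell and Gli3 rose. Fbxw11 and Btrc, F-box proteins of the ligase that starts Gli processing, each fell by 0.20, and Prkaca by 0.14 (adjusted p = 0.0182, 0.0409 and 0.0498). Of these Numb and Prkacb kept their calls in all 14 omissions of 1 array, while Fbxw11 lost its call in 1, Btrc in 10 and Prkaca in 12.

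Genes reported as hedgehog targets in other tissues went both ways. Of 28, 4 rose and 3 fell in cKO, 0 rose and 3 fell in Ctl, and 7 rose and 3 fell in the average, with medians of 0.11, 0.09 and 0.07. Vegfa, an angiogenic growth factor, read 7.68, 7.57 and 7.86 in cKO EDL arrays, against 9.65, 9.21 and 9.35 in cKO sham arrays. It read 7.83, 8.03, 7.87 and 7.80 in Ctl EDL arrays, against 9.26, 9.08, 9.48 and 9.56 in Ctl sham arrays. It was 3.25-fold lower in cKO and 2.76-fold lower in Ctl (-1.70 ± 0.14 and -1.46 ± 0.12, adjusted p = 1.41e-06 and 1.27e-06), with no overlap. Ccnd1, a cyclin of the G1 phase, fell by 0.54 ± 0.13 in cKO and by 0.75 ± 0.11 in Ctl (adjusted p = 0.017 and 0.000577). Cntfr, a receptor for ciliary neurotrophic factor, fell by 0.51 ± 0.15 and 0.62 ± 0.13 (adjusted p = 0.0399 and 0.00713). In cKO Ccnd1 lost its call without cKO sham replicate 2 (-0.53, adjusted p = 0.0622) or 4 (-0.50, adjusted p = 0.0591), and Cntfr in 8 of 14 omissions (adjusted p up to 0.181).

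The 4 rises among the targets in cKO were Osr1, a transcription factor of mesenchyme (0.81 ± 0.20 in cKO, adjusted p = 0.022), Sfrp1, a secreted Wnt antagonist (0.81 ± 0.22, adjusted p = 0.0353), Spp1, the secreted phosphoprotein osteopontin (3.37 ± 0.95, adjusted p = 0.0377), and Foxm1, a transcription factor of dividing cells (1.22 ± 0.37, adjusted p = 0.049). Spp1 read 9.89, 9.09 and 8.47 in cKO EDL arrays, against 4.36, 8.66 and 4.32 in cKO sham arrays, of which replicates 2 and 4 are under the receptor level. Osr1, Sfrp1 and Spp1 passed in the average of both genotypes with any 1 array left out (Osr1 0.57 to 0.81, Sfrp1 0.54 to 0.83, Spp1 2.55 to 3.63). In cKO their calls were lost in 3, 4 and 5 of 14 omissions of 1 array, and that of Foxm1 in 9. Without cKO sham replicate 2 none of the 4 passed there (Osr1 0.54 with an adjusted p of 0.0918, Sfrp1 0.51 with 0.144, Spp1 2.66 with 0.166, Foxm1 1.08 with 0.172). Osr1 and Sfrp1 then passed in Ctl. With every array none of the 4 passed in Ctl, but their means were higher there too after EDL. The Ctl EDL and Ctl sham means were 8.90 and 8.31 (Osr1), 10.18 and 9.61 (Sfrp1), 8.65 and 6.20 (Spp1) and 6.36 and 6.02 (Foxm1). The remaining calls of the average, all outside the rule for named genes and named after their values were seen, were Foxm1, Snai2, Ccnd2 and Rab34. Foxm1 rose by 0.78 (adjusted p = 0.0368), Snai2 by 0.40 (0.0212), Ccnd2 by 0.33 (0.0287) and Rab34 by 0.19 (0.0284). Their calls were lost in 11 (Foxm1), 2 (Snai2), 6 (Ccnd2) and 6 (Rab34) of 14 omissions of 1 array.

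Genes with a profile like that of a member were sought among 14881 genes above the receptor level, by Pearson's r of log2 values over the 14 arrays, which share their surgery effect. Gas1 was most like Rps2 (0.96), Rhoj (0.95) and Steap3 (0.95), and Gli3 most like Dchs1 (0.92), Scarf2 (0.90) and Sar1a (0.88). Ptch1 was most like Sfi1 (0.93), Hhip most like Syndig1l (0.92) and Hoxc13 (0.91), Sufu most like Cmtm4 (0.89), Dhh most like Krt42 (0.84), Smo most like Obsl1 (0.82), Gli1 most like Dio1 (0.86) and Gli2 most like Evc2 (0.80). With the group means taken out, the highest values were 0.91 for Gas1 (Rnf144a), with Sfrp1 next at 0.88, and 0.86 for Gli3 (Pir). On the same measure Gli1 was most like Lbp and C7 (0.88 each), then Evc (0.87), and Gli2 most like Klhdc10 (0.96), then Evc2 (0.90). Evc and Evc2 are both in the list of Smo traffic. Gli1 was above the receptor level on 5 arrays and Gli2 on none. Whether such values exceed what a search over 14881 genes gives without any relation was not tested.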

How the data were processed

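RNA of 14 arrays was assigned to genotype, surgery and replicate number by the labels. The deposited main table gave log2 values for 22206 probe sets. Per the submitters' processing notes RMA, Affymetrix Expression Console and Partek 7.0 were used, with no role or order given. A table deposited by the authors gave an unadjusted p-value and a linear ratio per probe set and comparison, and these are quoted only where named. Its 14 columns of array values were not used. A second deposited table of log2 values, of unstated normalization, served as an alternative. Over called genes its differences were 1.64 times as large in cKO, in the median. Background correction could not be varied, since only summarised values were at hand.

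Gene names are the deposited symbols, 20452 of them matched to current symbols through RefSeq accessions, and 3 probe sets had none. Where a symbol had several probe sets (180 symbols), that of highest mean stood for it, leaving 21929 genes. All were tested with no filter on low values. The receptor level is the 95th percentile of the mean of olfactory and vomeronasal receptor genes, and no detection calls were used. A single scan date covered all arrays, so no batch could be compared. The number of arrays limits the precision: the median SE over all genes was 0.10 for EDL minus sham in Ctl mice and 0.12 in cKO mice.

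One limma model with a mean per group (10 residual and 4.16 prior degrees of freedom) gave EDL minus sham in each genotype and their average, cKO minus Ctl in each tissue and their average, and the interaction, two-sided. The 9 members, the pathway lists and the marker lists were chosen with earlier results of these data known. The genes named were the members, Arl13b, Krt5 and, from each pathway list and comparison, up to 6 genes past the threshold by smallest p. The 3 most similar genes per member were added. Marker genes appear as lists: basal, fibroblast, smooth muscle, endothelial, macrophage, initial segment principal, clear, Schwann, sperm and mesothelial. Alternatives were quantile normalization once more, centring on array medians, the second table, mouse as a fixed or random block, trended robust variances, only the arrays compared, array weights, a filter on background, separate probe sets and each array left out. Leaving out both arrays of mouse cKO 2 was added after seeing the data. The model was tested on simulated data. Promoters are from RefSeq's mouse table, in which 8 of 9 members were found. Software was limma 3.58.1 under R 4.3.3, with tables and figures made by pandas 2.3.3, matplotlib 3.10.9 and numpy 2.4.6 under Python 3.11.15.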

Additional observations from a re-analysis of the deposited data

Results flagged for a closer look

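Sufu in the Ctl EDL arrays had 1 array apart from the others. Replicate 3 read 8.34, against 8.15, 8.16 and 8.16 in the other 3, and the gap took a share of 0.944 of the group's whole range, above Dixon's 95% value of 0.829 for 4 arrays. The 9 genes were looked at in both Ctl groups, 18 groups in all, and chance flags about 1 in 20 groups.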

How the results depend on the processing

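The rise of Gas1 in cKO kept its direction under every alternative and passed under all but the omission of mouse cKO 2 (0.58, adjusted p = 0.0553), and in the average of both genotypes it passed under every alternative run. Of the 9 members, 1 passed in Ctl with the second table (Gas1, 0.74), with trended robust variances and without mouse cKO 2. In cKO Gas1 alone passed with quantile normalization once more, centred arrays, array weights and only the arrays compared. Gli3 did not pass there (0.65, 0.62, 0.58 and 0.69, adjusted p = 0.0523, 0.0543, 0.0779 and 0.114 in that order). In cKO 0 passed without mouse cKO 2. In the average Gas1 alone passed without mouse cKO 2, and Gli3 did not (0.37, adjusted p = 0.127). Among the other genes named, that omission removed the cKO calls of Grk2, Numb, Prkacb, Arrb1, Inpp5e, Lrp2, Cntfr, Foxm1, Sfrp1 and Spp1. In the average of genotypes it removed those of Lrp2, Fbxw11, Btrc, Prkaca, Iqce, Snai2, Ccnd2, Foxm1 and Rab34. With 1 array left out, 0 to 1 of the 9 passed in Ctl, 1 to 2 in cKO, 1 to 2 in the average and 0 to 0 in each comparison of genotypes and the interaction. The cause of these changes was not tested beyond the fewer samples that some settings hold. All genes called in cKO numbered 1375 with only the arrays compared, 712 without mouse cKO 2 and 1063 to 2197 with 1 array left out. With 1 array left out, all genes called numbered 1169 to 1772 in Ctl and 3206 to 4007 in the average of genotypes, of 21929. In sham tissue 0 to 4 genes passed between genotypes with 1 array left out, in the average of surgeries 0 to 3, and 1 there with the second table.

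No result past the threshold reversed. Values near 0 changed sign as follows. For EDL minus sham in cKO, Smo read -0.01 with centred arrays and Hhip 0.05 without mouse cKO 2. For the average of genotypes, Dhh read -0.01 (centred), -0.02 (second table) and -0.12 (without mouse cKO 2). For cKO minus Ctl in sham tissue, Gli2 read 0.02 (centred, second table and without mouse cKO 2) and 0.004 (array weights), Ptch1 0.01 (centred) and 0.001 (second table), and Gas1 0.001 (without mouse cKO 2). In EDL tissue, Gli1 read -0.02 (quantile), -0.01 (centred) and -0.11 (second table), and Sufu -0.01 (array weights). For the average of surgeries, Gas1 read -0.11 (second table) and -0.01 (array weights), Dhh -0.02 (second table) and Sufu 0.01 (without mouse cKO 2), and for the interaction Ptch1 read 0.01 (without mouse cKO 2). With 1 array left out, signs also changed within these ranges: Gli2 -0.18 to 0.01 in Ctl; Smo -0.003 to 0.16, Hhip -0.20 to 0.15 and Dhh -0.32 to 0.03 in cKO; Hhip -0.001 to 0.17 and Dhh -0.07 to 0.10 in the average of genotypes. Between genotypes the ranges were -0.14 to 0.06 (Gli2), -0.10 to 0.06 (Ptch1) and -0.26 to 0.001 (Gas1) in sham tissue, and -0.08 to 0.12 (Gli1), -0.03 to 0.06 (Sufu) and -0.10 to 0.24 (Hhip) in EDL tissue. They were -0.03 to 0.19 (Gli3), -0.06 to 0.07 (Gas1) and -0.04 to 0.14 (Dhh) in the average of surgeries, and -0.11 to 0.05 (Smo) in the interaction.

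The labels do not say that a replicate number marks the 2 sides of a mouse. Deviations from group means correlated between -0.002 and 0.198 within a number, and 4 of 7 numbers had their own other side as best partner, so the pairing was not taken as shown. With mouse as a fixed replicate block Gas1 differed by 0.65 in cKO (adjusted p = 0.0102) and 0.37 in Ctl (0.0563), and Gli3 by 0.69 in cKO (0.0421). As a random block the adjusted p were 0.00451, 0.0513 and 0.025. The block changed no call of a member. Among the other genes named, the fixed block removed the calls of Inpp5e (adjusted p = 0.0875), Cntfr (0.071) and Foxm1 (0.0819) in cKO, of Iqce (0.0561) in Ctl, and of Btrc (0.0763), Prkaca (0.0942), Foxm1 (0.0621) and Rab34 (0.069) in the average of genotypes. Comparisons of genotypes have no fixed block, since a mouse has 1 genotype. With only the arrays compared, the interaction and averages have no value, and the filter on background left out Gli2.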
